A study of Mus musculus with 10 samples.

Results

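The genes described here are 10 genes for proteins of neutrophil granules, out of 55414 gene rows in the count table. They were chosen by name, by the class of granule that stores the protein: primary (Mpo, Elane, Prtn3, Ctsg), secondary (Ltf, Camp, Lcn2, Ngp, Mmp8) and tertiary (Mmp9). The choice of these genes and of the marker lists was made with earlier results of these data known. Counts of genes with lower or higher estimates are therefore descriptions and no independent test. All 10 symbols matched 1 row each. RNA was read in 10 libraries of mouse spleen cells enriched with magnetic beads against F4/80, a surface protein of mature macrophages, 5 from C57BL/6N animals without the deletion (WT) and 5 from mice labelled Fpr2KO, whose gene for formyl peptide receptor 2 was deleted. No treatment, age or sex is given in the labels, nor the strain of the Fpr2KO line, and nothing says that replicates were separate animals, so the p-values reflect the spread among these libraries alone, and that spread may be technical.

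Neutrophil granules are filled in the order in which their genes are read during maturation in the bone marrow. Primary (azurophil) granules form first, in promyelocytes, and hold myeloperoxidase and serine proteases. Secondary (specific) granules follow in myelocytes and metamyelocytes and hold lactoferrin, cathelicidin and collagenase, and tertiary (gelatinase) granules come last. Primary granule genes are turned off early, so their transcripts mark immature cells, whereas transcripts of late genes such as Mmp9 persist into mature neutrophils. Fpr2 is itself a neutrophil and macrophage receptor whose ligands include the cathelicidin peptide made from Camp.

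The libraries held 15865820 to 19060188 counts, and Fpr2 had 1983 reads over the WT libraries and 0 in each Fpr2KO library (FDR = 1.44e-06, edgeR). Markers of the labelled cell type were abundant: 11 red pulp macrophage genes, among them Adgre1, which encodes F4/80, summed to 8251 to 10600 CPM per WT library and 7780 to 10810 CPM per Fpr2KO library. CPM is the count of a gene scaled to a common library size, adjusted by TMM. The 10 granule genes together made up only 0.0142% to 0.0237% of the counts of a WT library and 0.00923% to 0.0140% of those of an Fpr2KO library. In such bulk samples, fewer neutrophils and less granule RNA per cell cannot be told apart.

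The promoters of these genes are shown first, because some members of the same class shared short sequences. RefSeq promoters of GRCm38.p6, 250 bases before to 50 after the RefSeq gene start, were at hand for 9 of the 10 genes, and for Mmp9 none was. C/EBP factors and PU.1 drive granulocyte maturation, and 4 motifs were searched on both strands. The C/EBP letters TTGCNNAA occurred in 4 of 9 members, all of them secondary (Ltf, Lcn2, Ngp, Mmp8), against 10.8% of 27018 promoters. The PU.1 letters GAGGAAGT occurred in 4 of 9 members (Mpo, Elane, Prtn3, Mmp8), against 3.30% of promoters. Camp, also secondary, had no C/EBP match, and Ctsg, also primary, had no PU.1 match. The GATA letters AGATAA occurred in Ltf alone among the members (11.4% of promoters) and the RUNX letters TGTGGTNA in none of them (4.50%). A match describes these letters in this window and is no measured binding site. The lines below give 30 bases around each PU.1 match, 5′ to 3′ on the strand of the gene, with the match in capitals.
Mpo (chr11:87793549-87793578, plus strand): gtggagagagaGAGGAAGTtgcctttgtcc
Elane (chr10:79886216-79886245, plus strand): cgtgtcccaggGAGGAAGTagggctgtggc
Prtn3 (chr10:79879561-79879590, plus strand): caaactggaagGAGGAAGTgggacccacag
Mmp8 (chr9:7558197-7558226, plus strand): taactagcacaACTTCCTCattacacacag

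In Elane and Prtn3, neighbours on chromosome 10, the PU.1 letters began 85 and 95 bases before the RefSeq start, and in Mpo 224 bases before it. These starts are not those of the GENCODE gene models given with the values: the RefSeq start lies 65 bases inside the GENCODE model for Elane, 203 for Mpo and 5191 for Prtn3. Counted from the GENCODE start, the match lies 20 bases upstream in Elane and 21 in Mpo, and in Prtn3 it lies inside the gene model. In Mmp8 they lay on the opposite strand, so their reverse complement is printed. The lines for the C/EBP matches, again with the match in capitals, hold 2 places for Ngp.
Ltf (chr9:111019206-111019235, plus strand): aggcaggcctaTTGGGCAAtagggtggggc
Lcn2 (chr2:32387937-32387966, minus strand): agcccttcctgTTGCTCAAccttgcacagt
Ngp (chr9:110419659-110419688, plus strand): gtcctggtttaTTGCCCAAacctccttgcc
Ngp (chr9:110419786-110419815, plus strand): accggcagttcTTGGGCAAggcagtctcaa
Mmp8 (chr9:7558399-7558428, plus strand): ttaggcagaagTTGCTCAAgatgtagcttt

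The matches in Ltf and the second one in Ngp, nearest its start, are on the opposite strand. In Mmp8 the C/EBP letters began 19 bases before the RefSeq start and 46 before the GENCODE start. By the GENCODE models the Lcn2 match and the second Ngp match lie inside the gene. The 250 bases upstream of the RefSeq start of Mmp8 (chr9:7558179-7558428, plus strand) are given with the C/EBP match in capitals.
Mmp8: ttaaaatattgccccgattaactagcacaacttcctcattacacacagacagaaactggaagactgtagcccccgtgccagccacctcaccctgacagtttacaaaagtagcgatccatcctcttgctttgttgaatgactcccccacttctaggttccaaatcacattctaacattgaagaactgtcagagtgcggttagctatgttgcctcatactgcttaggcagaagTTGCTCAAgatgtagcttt

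All 10 granule genes had a lower mean CPM in Fpr2KO than in WT, and among the 3 class sums the ratio was nearest 1 for the primary class. Summed over its members, the primary class was 0.833 times as high in Fpr2KO as in WT, the secondary class 0.633 times and Mmp9, the tertiary gene, 0.532 times. Within the primary class this held for Mpo and Elane, whereas Prtn3 and Ctsg had ratios below those of Ltf, Camp and Ngp. Mpo made up 3.04 of the 5.45 CPM of the mean primary sum in WT. That sum was 7.82 CPM in WT replicate 4 and 4.26 to 5.39 CPM in the other WT libraries. Of the 9 genes with enough reads to be tested, edgeR called 0 at a false discovery rate (FDR) of 0.05 over all 14669 genes tested, and 5 had an unadjusted p under 0.05 (Mmp8, Lcn2, Mmp9, Prtn3 and Ltf). The count of 5 fell to 3 without WT replicate 4 or 5, without Fpr2KO replicate 4 or 5, and with upper quartile scaling. Among all genes tested, 0.0614% were lower past the FDR and 4.92% were lower at the unadjusted p. All 9 had lower estimates, against 46.8% of all genes tested, and their median log2 fold change was -0.50, against 0.01 over all genes. Ctsg had too few reads for the filter, and with no filter 10 of 10 estimates were lower, with a median of -0.55. DESeq2 called 3 of the 10 lower (Mmp8, Mmp9 and Lcn2), against 0.567% of the genes it tested, and edgeR with no filter called Mmp8. The difference between classes was not tested.

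**Figure D1:**
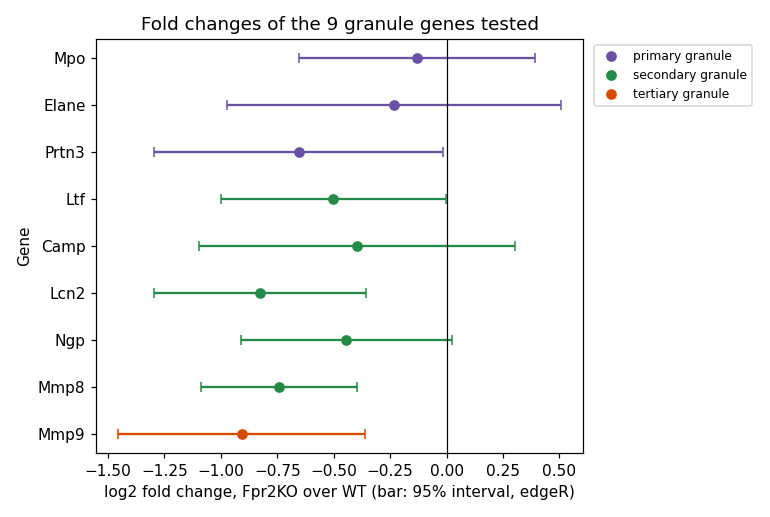
Log2 fold change of Fpr2KO over WT for the 9 granule genes tested (x axis), with 95% intervals from edgeR and colours for the granule class. Every point lies below 0, and the intervals of Mmp8, Lcn2 and Mmp9 end at -0.40, -0.36 and -0.36. Those of Prtn3 and Ltf end just below 0, at -0.015 and -0.002. The intervals of Mpo, Elane, Camp and Ngp include 0 and end at 0.39, 0.51, 0.30 and 0.02.

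Among the primary granule genes, myeloperoxidase, the enzyme that makes hypochlorous acid, showed no separation of the groups. Mpo (ENSMUSG00000009350, chromosome 11, 87793581 to 87804413, plus strand, GRCm38) was measured at 2.48, 2.27, 2.52, 5.20 and 2.73 CPM in WT replicates 1 to 5 and at 2.73, 2.91, 3.27, 3.01 and 1.98 CPM in Fpr2KO replicates 1 to 5. The groups overlapped, and WT replicate 4 alone lay far above the rest. The log2 fold change was -0.13 (95% interval -0.66 to 0.39, FDR = 0.884, edgeR), and without WT replicate 4 it was 0.15. An overlapping gene model, Gm11505, shares sequence with Mpo, and 12.1% of the 31-base sequences of Mpo occur elsewhere in the annotation, so some of its reads are uncertain.

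The 3 serine proteases of the primary granules were read at 2 to 27 counts per library. Neutrophil elastase, Elane (ENSMUSG00000020125, chromosome 10, 79886247 to 79888215, plus strand), had 6, 27, 15, 19 and 13 reads in the WT libraries and 17, 14, 14, 11 and 11 in the Fpr2KO libraries. The Fpr2KO libraries lay within the WT range, and Elane had an estimated log2 fold change of -0.23 (95% interval -0.97 to 0.51, FDR = 0.851, edgeR), or 0.01 without WT replicate 2. Proteinase 3, Prtn3 (ENSMUSG00000057729, chromosome 10, 79874476 to 79883174, plus strand), had 16, 18, 15, 18 and 22 reads in WT and 17, 8, 11, 12 and 8 in Fpr2KO. Here 4 of 5 Fpr2KO libraries lay below every WT library, and replicate 1 lay within the WT range (log2 fold change -0.66, SE 0.30, FDR = 0.502, edgeR). The gene model of Plppr3 overlaps that of Prtn3, and 7.48% of the 31-base sequences of Prtn3 are shared. Cathepsin G, Ctsg (ENSMUSG00000040314, chromosome 14, 56099881 to 56102574, minus strand), had 6, 4, 10, 9 and 12 reads in WT and 9, 2, 3, 8 and 5 in Fpr2KO, which was too few for the filter. With no filter its log2 fold change was -0.60 (SE 0.50, FDR = 0.624, edgeR).

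The secondary granule gene Mmp8, neutrophil collagenase, was the only member whose groups did not overlap. Mmp8 (ENSMUSG00000005800, chromosome 9, 7558456 to 7568485, plus strand) was measured at 21.8, 19.6, 22.0, 19.4 and 27.2 CPM in WT replicates 1 to 5 and at 17.95, 12.7, 12.6, 8.64 and 13.99 CPM in Fpr2KO replicates 1 to 5. Fpr2KO replicate 1 came closest to WT, and replicate 4 was lowest. Every Fpr2KO library below every WT library was seen in 0.566% of all genes tested. The log2 fold change was -0.74 (SE 0.16, FDR = 0.135, edgeR), and Mmp8 passed with no filter (FDR = 0.0227, edgeR) and with DESeq2 (adjusted p = 0.00438).

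Lipocalin 2, which starves bacteria of iron by binding their siderophores and is also made by activated macrophages, had the largest difference of its class. Lcn2 (ENSMUSG00000026822, chromosome 2, 32384633 to 32388252, minus strand) was measured at 19.4, 11.4, 13.4, 9.99 and 13.4 CPM in WT and at 10.7, 8.79, 6.31, 4.59 and 7.76 CPM in Fpr2KO, replicates 1 to 5. In this gene 4 of 5 Fpr2KO libraries lay below every WT library, and Fpr2KO replicate 1 lay just above WT replicate 4. The log2 fold change was -0.83 (SE 0.22, FDR = 0.216, edgeR), and DESeq2 called it (adjusted p = 0.0271).

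The other 3 secondary genes, Ltf, Camp and Ngp, had smaller differences and more overlap. Lactoferrin, the iron-binding protein encoded by Ltf (ENSMUSG00000032496, chromosome 9, 111019271 to 111042767, plus strand), was measured at 3.31, 3.62, 5.04, 7.08 and 4.60 CPM in WT and at 3.25, 4.30, 4.16, 2.52 and 2.52 CPM in Fpr2KO. The highest 3 libraries were all WT, and WT replicates 1 and 2 lay among the Fpr2KO values (log2 fold change -0.50, SE 0.23, FDR = 0.508, edgeR). Neutrophilic granule protein, a relative of the cathelicidins encoded by Ngp (ENSMUSG00000032484, chromosome 9, 110419747 to 110423012, plus strand), was measured at 7.19, 8.81, 9.72, 12.5 and 12.4 CPM in WT and at 9.37, 10.3, 5.89, 7.22 and 4.55 CPM in Fpr2KO. Only 2 Fpr2KO libraries lay below every WT library (log2 fold change -0.44, SE 0.22, FDR = 0.531, edgeR). Camp, the precursor of the cathelicidin peptide (ENSMUSG00000038357, chromosome 9, 109847379 to 109849617, minus strand), was measured at 1.21, 1.35, 1.93, 2.80 and 2.61 CPM in WT and at 2.47, 0.728, 1.31, 1.75 and 1.29 CPM in Fpr2KO. Its groups overlapped over most of their range (log2 fold change -0.40, 95% interval -1.10 to 0.30, FDR = 0.706, edgeR).

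Gelatinase B, encoded by Mmp9, was the most abundant member and had the largest difference of all 10. Macrophages and monocytes can make it too. Mmp9 (ENSMUSG00000017737, chromosome 2, 164940780 to 164955850, plus strand) was measured at 183.4, 160.9, 142.3, 97.8 and 78.7 CPM in WT and at 64.8, 54.8, 74.6, 59.9 and 98.99 CPM in Fpr2KO, replicates 1 to 5. In Mmp9, 4 of 5 Fpr2KO libraries lay below every WT library, while Fpr2KO replicate 5 lay above WT replicates 4 and 5. The log2 fold change was -0.91 (SE 0.25, FDR = 0.265, edgeR), and DESeq2 called it (adjusted p = 0.00506).

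**Figure D2:**
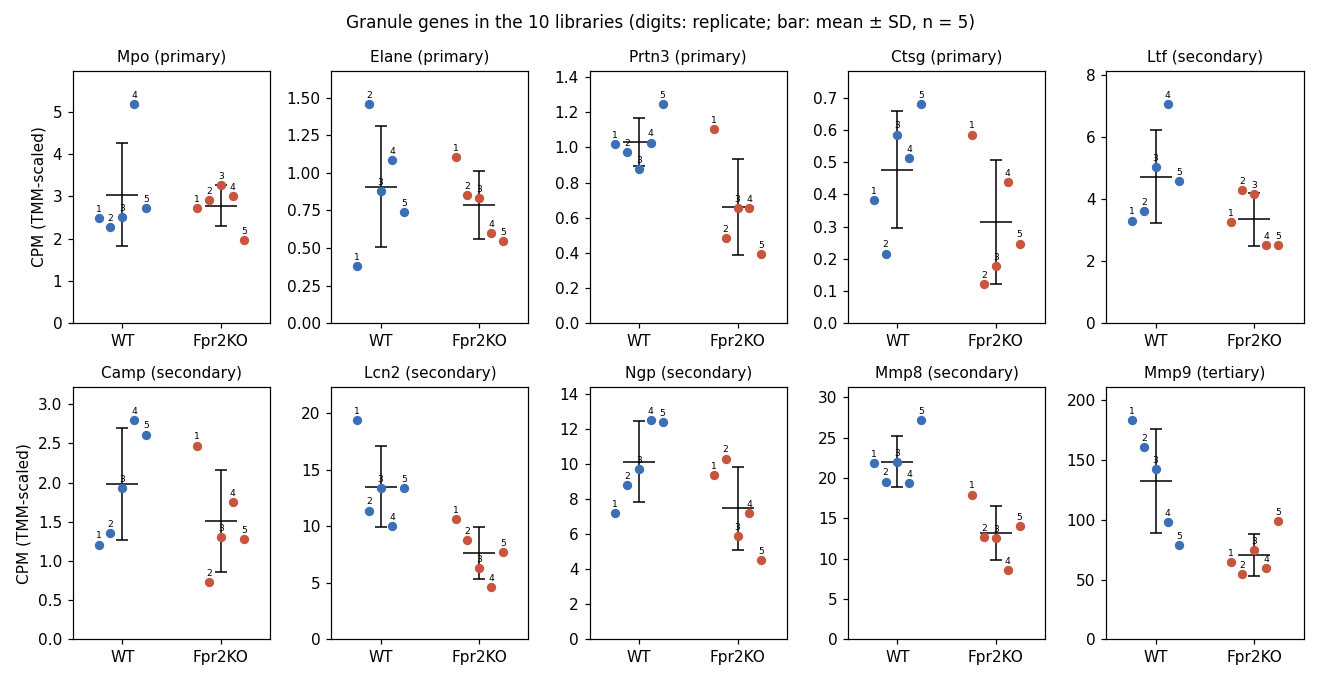
CPM of each granule gene (y axis, starting at 0) in the WT and Fpr2KO libraries; digits give the replicate and bars the mean ± SD (n = 5). Mmp8 is the panel in which all Fpr2KO points, up to 17.95 CPM, lie below all WT points, from 19.4 CPM.

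Per kilobase of exon, Mmp9 stood above all other members in both groups, with 37.5 ± 12.3 CPM per kb in WT and 19.95 ± 4.94 in Fpr2KO (SD, n = 5). In WT the order went on with Mmp8 (9.07 ± 1.30), Ngp (8.28 ± 1.89) and Lcn2 (5.15 ± 1.37), and neighbours among these 3 overlapped between libraries. A gap without overlap separated Lcn2 from Camp (2.61 ± 0.947 CPM per kb). From Camp down through Ltf, Elane, Mpo and Prtn3 to Ctsg (0.461 ± 0.176) each gene overlapped the next. In Fpr2KO only Mmp9 was set apart from its neighbour, and Ngp (6.11 ± 1.95) and Mmp8 (5.43 ± 1.38) changed places within their spread. The primary genes, at under 1 CPM per kb of exon in both groups, thus had the lowest means of the members.

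Within the groups the members did not all vary together. WT replicate 1 had the highest Mmp9 and Lcn2 of all 10 libraries and, among WT libraries, the lowest Ltf, Camp, Ngp and Elane. WT replicate 4 had the highest Mpo, Ltf, Camp and Ngp of all 10 and, among WT libraries, the lowest Lcn2 and Mmp8. Among the Fpr2KO libraries, replicate 1 was highest for Elane, Prtn3, Ctsg, Camp, Lcn2 and Mmp8, and replicate 5 was highest for Mmp9 and lowest for Mpo, Elane, Prtn3 and Ngp. The spread of Mmp9 in WT, a coefficient of variation of 32.9%, was far above the 2.10% that counting alone gives at its depth. For Prtn3 in WT the spread of 13.3% was below the counting value of 23.7%, and for Mpo in Fpr2KO 17.6% stood beside 14.4%.

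**Figure D3:**
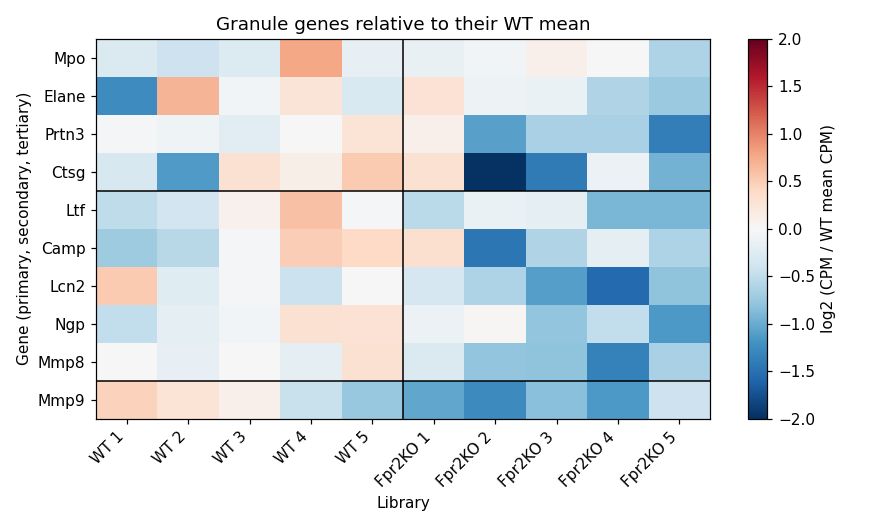
Each cell is the log2 ratio of a gene's CPM in a library (column) to its WT mean, with primary, secondary and tertiary genes separated by lines. Mmp9 is high where Ltf, Camp and Ngp are low in WT replicate 1, and the reverse holds in WT replicate 4.

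Of the class sums, the secondary one alone set the groups apart in every library. The secondary class summed to 52.95, 44.7, 52.1, 51.7 and 60.2 CPM in WT and to 43.7, 36.8, 30.2, 24.7 and 30.1 CPM in Fpr2KO, with no overlap. Without Mmp8 and Lcn2, the sum of Ltf, Camp and Ngp ran from 11.7 to 22.4 CPM in WT and from 8.35 to 15.3 CPM in Fpr2KO, and the groups overlapped. The primary class summed to 4.26 to 7.82 CPM in WT and 3.16 to 5.53 CPM in Fpr2KO, from 64 to 137 reads per library. The ratio of secondary to primary CPM ran from 6.61 to 12.4 in WT and from 5.26 to 9.52 in Fpr2KO. The ratio of Mmp9 to the secondary class ran from 1.31 to 3.60 in WT and from 1.48 to 3.29 in Fpr2KO, so neither ratio set the groups apart.

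Markers of mature neutrophils had lower estimates beside those of the granule genes, with 0 past the FDR by edgeR. S100a8 and S100a9, the calprotectin subunits that mature neutrophils and monocytes carry in bulk, summed to 552.2, 352.0, 374.2, 307.4 and 300.8 CPM in WT and to 398.4, 241.2, 223.5, 157.1 and 242.1 CPM in Fpr2KO. Of 12 mature neutrophil markers 11 were tested, all 11 with lower estimates (median log2 fold change -0.71), 9 at an unadjusted p under 0.05 and 2 called by DESeq2. The shares over all genes were 46.8% with lower estimates, 4.92% lower at the unadjusted p and 0.567% called lower by DESeq2. The sum of the 12 markers ran from 926.4 to 1619 CPM in WT and from 503.2 to 1035 CPM in Fpr2KO. Ly6g, which defines neutrophils, had 0.711 ± 0.224 CPM in WT and 0.247 ± 0.156 CPM in Fpr2KO. Set against S100a8 and S100a9, the secondary class overlapped between the groups, and the primary class and Mmp9 overlapped as they had before. The pair itself varied within the groups (377.3 ± 102.4 CPM in WT, 252.5 ± 88.7 in Fpr2KO, SD), and that spread enters the ratios. Per 1000 CPM of that pair, the secondary class stood at 146.1 ± 39.8 CPM in WT and 135.8 ± 19.7 in Fpr2KO, the primary class at 15.6 ± 6.60 and 19.4 ± 6.90, and Mmp9 at 349.8 ± 73.4 and 302.6 ± 104.6 (SD, n = 5). These ratios are descriptions, and a part of the number of mature neutrophils in the granule differences was not tested.

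**Figure D4:**
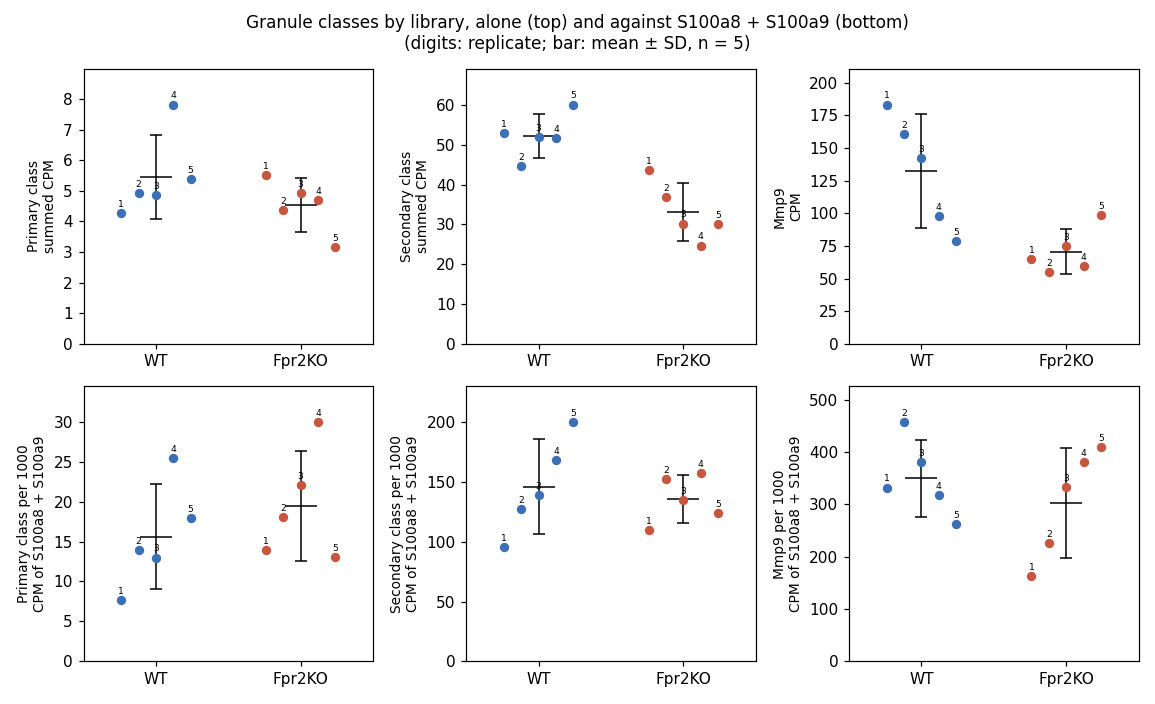
Top row: summed CPM of the primary and secondary genes and CPM of Mmp9 by library; bottom row: the same per 1000 CPM of S100a8 and S100a9 (y axes from 0, digits for replicates, bars mean ± SD, n = 5). The secondary class separates the groups in the top row, at 44.7 CPM and above in WT, and overlaps in the bottom row.

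Lists of markers of other cells and of cell handling had 0 genes past the FDR by edgeR, and several had estimates on 1 side. All 8 classical monocyte markers had lower estimates (median -0.50, 4 at an unadjusted p under 0.05, 1 called by DESeq2), with a sum of 1324 to 1827 CPM in WT and 1061 to 1288 CPM in Fpr2KO. All 12 immediate early genes, which respond to cell isolation, were lower in estimate (median -0.39, 11 at an unadjusted p under 0.05, 3 called by DESeq2), with sums of 14080 to 21270 and 11470 to 14550 CPM. All 10 erythroid markers had higher estimates (median 1.57; 9 at an unadjusted p under 0.05, 2 called by DESeq2), with sums of 172.6 to 564.4 CPM in WT and 577.3 to 1232 CPM in Fpr2KO. Over all genes tested, 53.2% had higher estimates, 4.88% were higher at the unadjusted p and 0.526% were called higher by DESeq2. For the lower direction these shares were 46.8%, 4.92% and 0.567%. The 9 basophil and mast cell markers tested, of which mast cells can also carry Ctsg, were lower in estimate (median -0.39), at sums of 19.5 to 34.9 and 14.8 to 25.2 CPM. All 10 cell cycle genes had higher estimates (median 0.63, 9 at an unadjusted p under 0.05, 7 called by DESeq2). Of 8 eosinophil markers 4 were higher and 4 lower in estimate, with 0 at an unadjusted p under 0.05. Of 8 granulocyte progenitor markers tested, 6 were lower in estimate and 1 (Meis1) had an unadjusted p under 0.05. Mitochondrial genes took 4.83% to 6.09% of the counts in the WT libraries, 3.22% to 3.99% in Fpr2KO replicates 1, 3, 4 and 5, and 6.04% in Fpr2KO replicate 2. That replicate was within the WT range for this share. It lay below every WT library in Mmp8 (12.7 CPM), Lcn2 (8.79 CPM), Mmp9 (54.8 CPM), Prtn3, Ctsg and Camp. In Mpo, Elane, Ltf and Ngp it lay within the WT range. The part of these cells, of sample handling and of RNA quality in the granule differences was not tested.

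Other proteins of the secondary and tertiary granules mostly had lower estimates too. Of 14 such genes 13 were tested, 12 with lower estimates (median -0.24), 6 of them at an unadjusted p under 0.05, 0 past the FDR by edgeR and 3 by DESeq2 (Chil3, Itgam and Hp). Chil3, a chitinase-like protein shared with monocytes, had a WT level of 104.2 ± 22.4 CPM against 42.4 ± 15.5 CPM for Fpr2KO without overlap (n = 5 each, SD). Its log2 fold change of -1.30 (SE 0.27) missed the FDR (0.165, edgeR). Itgam, the integrin subunit CD11b, was at -0.57 (SE 0.15) on the log2 scale and haptoglobin, Hp, at -0.72 (SE 0.22). Of 8 other primary granule genes 6 were tested, 4 with lower and 2 with higher estimates. Lyz2, lysozyme, which macrophages make in bulk, and the proteoglycan gene Srgn, which packs granule proteases, were the 2 with an unadjusted p under 0.05, at log2 fold changes of -0.38 (SE 0.12) and -0.34 (SE 0.13). Neither edgeR nor DESeq2 called any of these 6. Bpi and Ms4a3 had too few reads to be tested.

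Transcription factors linked to granule genes showed no common direction. Of 9 tested, 6 had lower estimates, 2 at an unadjusted p under 0.05 and 0 called by edgeR or DESeq2. Cebpe, the factor required for secondary granules, stood at 3.01 ± 1.06 CPM (WT) and 3.02 ± 0.812 CPM (Fpr2KO; SD over 5 libraries), a log2 fold change of 0.01 (SE 0.26). The log2 fold change of Spi1, which encodes PU.1, was -0.04 (SE 0.11), that of Gfi1 0.15 (SE 0.24), and those of Cebpa and Cebpb -0.39 (SE 0.15) and -0.41 (SE 0.15). Many of these factors are also made by macrophages.

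Among inhibitors and the release machinery most estimates were near 0. Of 7 protease inhibitors tested, 4 were lower in estimate with a median of -0.04. The stefin gene Stfa2l1, itself made by neutrophils, was the 1 gene of these that DESeq2 called (log2 fold change -1.08, SE 0.29, FDR = 0.209 in edgeR). For Serpinb1a, which inhibits the granule serine proteases, the estimate was 0.01 (SE 0.12). Of 18 genes for granule exocytosis and biogenesis, 11 had lower estimates (median -0.08), 3 at an unadjusted p under 0.05 and 0 called by edgeR or DESeq2. Rab27b, a small GTPase of granule release, had the largest of these, -1.41 on the log2 scale (SE 0.39, FDR = 0.236, edgeR), at 1.13 ± 0.375 CPM in WT against 0.430 ± 0.236 CPM (SD over 5 libraries). For its relative Rab27a the estimate was -0.22 (SE 0.08). Of 7 receptors and partners of granule proteins tested, Fpr2 was the 1 past the FDR. The estimate was -0.25 (SE 0.12, FDR = 0.503, edgeR) for Lrp1, a scavenger receptor that clears proteases, and 0.19 (SE 0.12) for Fpr1.

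Genes whose variation within the groups came closest to that of each class were sought among 11415 genes, by the root mean square difference of log2 CPM over the 10 libraries after subtracting group means. Nearest to the 5 secondary genes was Ly6c2, a surface protein of classical monocytes and of granulocyte precursors, at a difference of 0.088. The median gene was at 0.275, and a gene with no variation within the groups would be at 0.22. Sparcl1 (0.090) and Endod1 (0.107) followed. Nearest to Mmp9 were Cd300lb (0.154), Ptafr (0.164), the receptor for platelet-activating factor, and Adgrg3 (0.167), against a median of 0.418 and 0.385 for no variation. Nearest to the 3 primary genes tested were Ppil1 (0.127), Hsp90ab1 (0.140) and Rpl19-ps11 (0.145), against a median of 0.313 and 0.268 for no variation. Those 3 primary genes had 6 to 91 reads per library, so counting alone gives a part of their variation. The lists for the 3 classes had no gene in common, but with 3 genes each out of 11415 this tells little about the classes. The closeness of the nearest genes was not tested.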

How the data were processed

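RNA sequencing libraries of polyadenylated RNA were made with the NEBNext Ultra II kit, per the labels' protocols. The authors deposited raw read counts per Ensembl gene, not normalised; the submitters' processing notes name HTSeq 0.10.0, FastQC 0.10.1 and the builds mm10 and GRCm38. Not given in the sources used here are the aligner, strand setting and annotation release, so reads of overlapping genes cannot be told apart. GENCODE M21 matched 52133 of 55414 identifiers, and coordinates and exon lengths are from it. Every pair of libraries within a group differed by more than sampling noise (chi-square per degree of freedom of at least 12.4).

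Counts were fitted in R 4.3.3 with edgeR 4.0.16 (filterByExpr, TMM, robust glmQLFit, glmQLFTest, two-sided, no covariate), with Benjamini-Hochberg adjustment over 14669 genes and a threshold of 0.05. The SE is the log2 fold change divided by the root of the F statistic. Log2 CPM used a prior count of 2. DESeq2 1.42.0, limma 3.58.1 (voom), other scalings and filters, a replicate block and fits leaving out each library were the alternatives. The fit was tested on simulated data. Named were the members, Fpr2, up to 4 genes of each other list by p-value with the genes that define a cell type, and the 3 genes nearest each class. Bpi, Ms4a3, Cebpe, Spi1, Gfi1, Serpinb1a and Fpr1 were named beside them for their roles after their values were seen. The members and lists were chosen with earlier results of these data known.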

Additional observations from a re-analysis of the deposited data

Results flagged for a closer look

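Mpo in WT replicate 4 was measured at 5.20 CPM, while the other 4 WT libraries lay between 2.27 and 2.73 CPM. Its distance to the nearest library was 0.844 of the range of the group, above the 95% critical value of 0.71 of Dixon's test for 5 samples. It was the only 1 of 30 groups of 5 values checked, and chance alone flags about 1 in 20.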

How the results depend on the processing

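Whether the replicate numbers pair the libraries cannot be told from these data. Same-numbered WT and Fpr2KO libraries had correlations of their deviations between -0.239 and 0.291, and not every library correlated best with its own number. The same-numbered libraries of replicates 2 (0.291) and 4 (0.25) had the highest correlations of all WT and Fpr2KO pairs. Those of replicates 1, 3 and 5 were negative. With the replicate block, edgeR called 64 genes in place of 10, and 2 members in place of 0 (Lcn2 and Mmp8). DESeq2 called 185 genes and 3 members, and edgeR with no filter 62 genes and 1 member. Leaving out 1 library gave 8 to 51 genes (51 without WT replicate 5, 26 without WT replicate 4 or Fpr2KO replicate 2), 0 members past the FDR in every such fit, and 8 or 9 members with lower estimates. In those fits 4 estimates changed sign, in 1 fit each: Mpo (-0.222 to 0.151, positive without WT replicate 4), Elane (-0.424 to 0.00689, positive without WT replicate 2), Cst3 (-0.0195 to 0.0988, negative without Fpr2KO replicate 1) and Sparcl1 (-0.169 to 0.0105, positive without Fpr2KO replicate 4). The cause was not tested. Prtn3, Ltf, Camp, Lcn2, Ngp, Mmp8 and Mmp9 kept negative estimates in each alternative in which they were tested. Leaving out 1 library moved 2 of these by over 1.5 times: Ltf, from -0.50 to -0.31 without WT replicate 4, and Camp, from -0.40 to -0.24 without WT replicate 4 or Fpr2KO replicate 2 and to -0.65 without Fpr2KO replicate 1. The count of members at an unadjusted p under 0.05, 5 in edgeR, was 3 with the replicate block. By the length of the longest transcript, the WT levels of Prtn3, Mpo and Lcn2 were 1.00, 1.105 and 9.83 CPM per kb. Lcn2 then stood above Mmp8 (9.07) and Ngp (8.28) in WT, and the primary genes still had the lowest means. Low read numbers limit the primary genes: the 95% interval of the log2 fold change of Elane runs from -0.97 to 0.51.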
